A study of Mus musculus with 12 samples.

Results

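The collagen gene family was taken as every gene whose symbol reads Col, a type number, a, and a chain number, which gave 44 of the 55357 genes in the table. By the known structure of the chains, 11 encode fibrillar collagens, 6 encode the type IV collagens of basement membranes, and 27 encode other collagens. The other collagens comprised 6 beaded filament chains of type VI, 9 fibril-associated collagens with interrupted triple helices (FACIT), 4 transmembrane collagens, 3 short-chain network collagens, 2 multiplexins, 1 anchoring fibril chain and 2 genes placed in no class, Col26a1 and Col28a1. Every gene with such a symbol was kept, whatever its level.

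Messenger RNA was sequenced from cortex with hippocampal formation of mouse pups at postnatal day 5, with separate rostral and caudal pieces for every pup. Conditional knockout animals (cKO; T3, T6 and T80) were labelled Nestin-EgfrF/F, with both copies of the epidermal growth factor receptor gene floxed and a Nestin-driven recombinase, which acts in neural progenitors and their neuronal and glial descendants. Control animals (T4, T8 and T70) were labelled EgfrF/+ in the protocol and WT in the genotype field, and the labels give neither the strain nor whether controls carried the recombinase. The effect of losing Egfr and that of the recombinase therefore cannot be told apart. There were 12 libraries in 4 groups of 3, and a shared T number was read as a shared animal. All comparisons of genotype are between 3 animals and 3 animals, and the p-values measure the spread between these animals.

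Collagens are extracellular proteins whose chains wind into a triple helix. Fibrillar collagens are the load-bearing fibres of connective tissue and, around the brain, are made mainly by fibroblasts of the meninges and of large vessels. Type IV collagens form a sheet-like network with laminins, and in brain they are the main collagens of the basement membrane around blood vessels and under the pial surface. FACIT, beaded filament and network collagens link or decorate these scaffolds, while transmembrane collagens sit in the plasma membrane and several are made by neurons.

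The cKO caudal T3 library was the shallowest, at 43810458 counts, and cKO rostral T6 the deepest, at 87170315 counts. Egfr was at 39.1 to 48.9 CPM (counts scaled to the size of the library) in control libraries and 5.81 to 14.6 CPM in cKO libraries, with no overlap. Summed neuronal markers (8 genes) lay between 3019 and 4055 CPM in every library. That sum hid moves both ways in cKO rostral T6. There Snap25 (976 CPM), Rbfox3 (306 CPM), Syt1 (1264 CPM) and Gad2 (86.4 CPM) were the highest of all libraries. Tubb3 (980 CPM) and Slc17a7 (216 CPM) were the lowest, and Slc17a6 and Gad1 lay between. The summed markers of cartilage and bone (10 genes) lay between 13.7 and 26.3 CPM, with the osteoblast gene Bglap at or under 0.0307 CPM. Most of that sum was Acan and Matn4, at 6.02 and 8.87 of 16.2 CPM in control rostral T4. The cKO rostral T6 and cKO caudal T3 libraries stood apart. Markers of meningeal fibroblasts (15 genes) summed to 33.1 CPM in cKO rostral T6 and 136 CPM in cKO caudal T3, against 804 to 982 CPM in the other 4 cKO libraries. The sums were 344, 149.9 and 344 CPM for the rostral pieces of control T4, T8 and T70, and 778, 608 and 695 CPM for their caudal pieces. In each control animal the caudal piece had the higher meningeal and choroid plexus sums. In T3 both orders were reversed. Its meningeal sums were 880.3 CPM rostral and 136 CPM caudal, and its choroid plexus sums (10 genes) were 402 CPM rostral and 231 CPM caudal. Ttr made up 360 and 211 CPM of the choroid plexus sums, and each other gene of that list was also higher in rostral T3. In T80 the meningeal order alone was reversed, at 982 CPM rostral and 881 CPM caudal. The choroid plexus sums of T80 were 16.0 CPM rostral and 162 CPM caudal. Animal T6 kept the control order for both. The labels of the T3 pieces were used as given, and whether the pieces were exchanged was not tested. Every value given for T3 rests on these labels. So does each result that includes T3 for regions in cKO, for the interaction, or for genotype within rostral or caudal tissue. Because RNA came from whole pieces of tissue, fewer cells of a type and less RNA per cell cannot be told apart.

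All 44 collagen genes had a count in every library, the lowest being 2. A mean of at least 1 CPM over the 12 libraries was reached by 39 genes, comprising 10 fibrillar, all 6 type IV and 23 other collagens, and 24 genes reached 10 CPM. The 5 genes under 1 CPM were Col24a1, Col6a6, Col20a1, Col17a1 and Col10a1. Collagens took between 0.0495% (cKO rostral T6) and 0.187% (cKO caudal T80) of all counts. All 44 passed the filter on low counts in every comparison.

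Levels can be compared between genes only per length, here as mean CPM per kilobase of exon. On that scale Col4a1 led with 38.6 and Col4a2 followed with 28.9. These genes, whose chains form the common vascular type IV network, held 42.1% of the summed per-kilobase level of the family. Next came the chains of the main connective tissue fibrils, Col1a1 at 12.2, Col1a2 at 9.53 and Col3a1 at 9.35, which together held 19.4%. These shares are means over libraries that differed. In cKO rostral T6 the type I and III genes held 2.20% and Col4a1 with Col4a2 held 58.2%, and in cKO caudal T3 the shares were 9.58% and 42.5%. Over the other 10 libraries they ran from 11.05% to 26.5% and from 36.8% to 51.2%. Col6a1 (6.52, a beaded filament chain), Col9a3 (5.97, a FACIT chain), Col4a5 (4.65), Col18a1 (4.11, the multiplexin that holds the endostatin fragment) and Col9a2 (3.79) completed the top 10. The transmembrane collagen Col23a1 ranked eleventh, at 3.62.

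**Figure D1:**
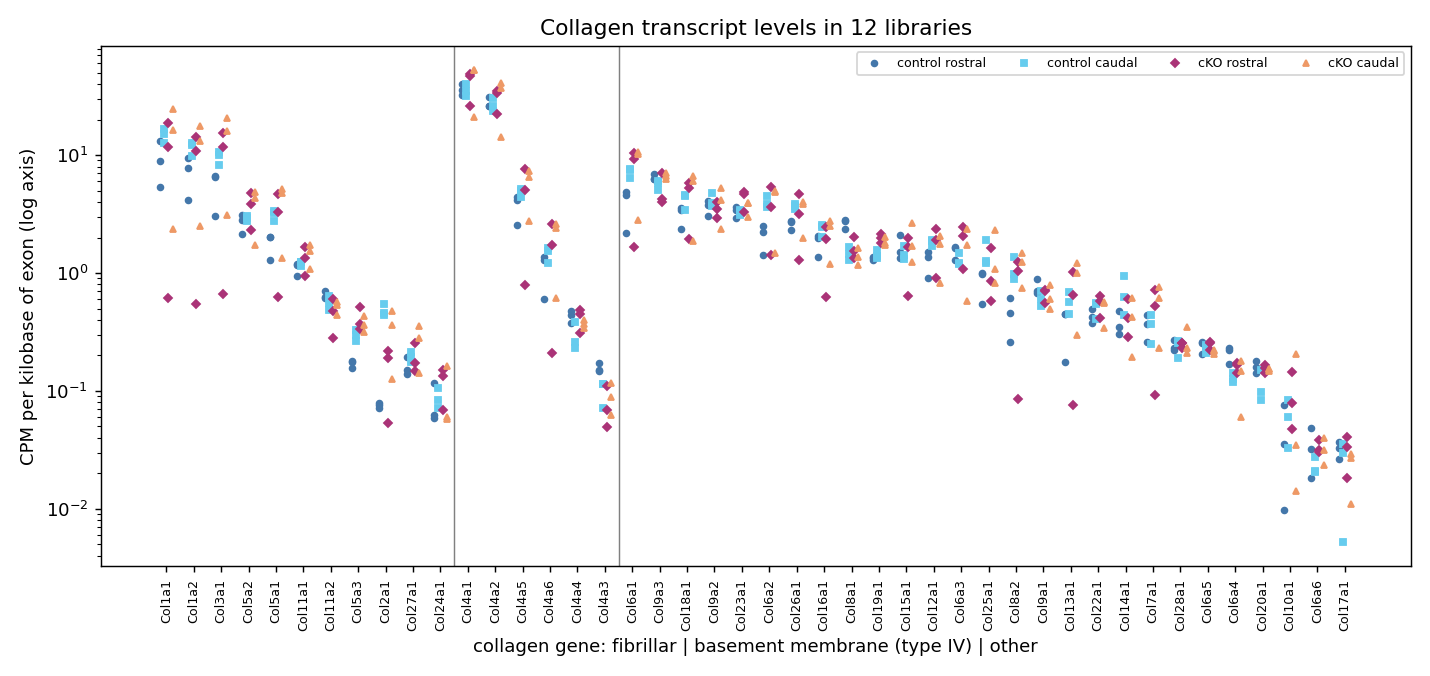
Level of each of the 44 collagen genes in CPM per kilobase of exon (log axis), in each of the 12 libraries; colours and symbols give the 4 groups of 3 libraries, and vertical lines separate fibrillar, type IV and other collagens. Col4a1 and Col4a2 lie highest, and the lowest points of Col1a1, Col1a2, Col3a1, Col4a5, Col4a6 and Col8a2 belong to the cKO rostral T6 library.

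The spread of a gene over the 12 libraries differed widely between members. The highest library was 40.3 times the lowest for Col1a1, 32.1 times for Col1a2 and 30.7 times for Col3a1, and in all of these the lowest was cKO rostral T6 and the highest cKO caudal T80. Among genes of at least 1 CPM, 7 had a ratio above 10. The others of these were Col8a2 (17.3), Col13a1 (16.0), Col4a6 (12.3) and Col2a1 (10.3). At the other end, 8 such genes stayed under a ratio of 2, with Col6a5 at 1.27, Col19a1 at 1.64, Col23a1 at 1.66 and Col9a3 at 1.76.

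The type IV chains are encoded by pairs of genes that lie head to head. On build GRCm39, as the table gives it, Col4a1 (chromosome 8, 11248423 to 11362826, minus strand) and Col4a2 (11362805 to 11499287, plus strand) overlap by 22 bases at their starts. Reads from that overlap cannot be told apart without the strand setting of the counting, which no source used here states. Per kilobase, Col4a1 was 1.16 to 1.48 times Col4a2 over the 12 libraries, with a median of 1.33. Col4a5 and Col4a6, on the X chromosome, have 1308 bases between them, and their ratio ran from 2.72 to 4.47. Col4a3 and Col4a4, on chromosome 1, have only 71 bases between their starts, and Col4a3 was 0.142 to 0.486 times Col4a4.

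The 71 bases shared by Col4a3 and Col4a4 are shown because both genes start at their edges. The others shown are the 120 bases before the start of Col4a6, of Col3a1, and of the called members Col5a1, Col5a3 and Col8a1 of the comparison of control regions. Sequences are from RefSeq on build GRCm38.p6, a different build from the table, and read 5′ to 3′ on the strand of the named gene. Capitals mark 3 short motifs, searched on both strands. The GC box was spelled GGGCGG and its reverse complement CCGCCC. The CCAAT box was spelled CCAAT and its reverse complement ATTGG. The TATA box was spelled TATAAA and its reverse complement TTTATA. None of these strings contains another. Col4a4, chr1:82586850-82586920, minus strand.
Col4a4: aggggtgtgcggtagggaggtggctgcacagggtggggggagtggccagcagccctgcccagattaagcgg
Col4a6, chrX:141474077-141474196, minus strand.
Col4a6: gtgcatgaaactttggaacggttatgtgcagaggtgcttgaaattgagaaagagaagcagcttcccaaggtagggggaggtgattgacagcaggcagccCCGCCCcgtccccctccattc
Col3a1, chr1:45311418-45311537, plus strand.
Col3a1: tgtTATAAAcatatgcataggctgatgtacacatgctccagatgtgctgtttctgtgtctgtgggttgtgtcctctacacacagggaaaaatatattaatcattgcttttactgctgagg
Col5a1, chr2:27886305-27886424, plus strand.
Col5a1: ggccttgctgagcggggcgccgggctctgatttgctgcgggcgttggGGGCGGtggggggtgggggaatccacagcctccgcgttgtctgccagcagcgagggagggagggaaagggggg
Col5a3, chr9:20815068-20815187, minus strand.
Col5a3: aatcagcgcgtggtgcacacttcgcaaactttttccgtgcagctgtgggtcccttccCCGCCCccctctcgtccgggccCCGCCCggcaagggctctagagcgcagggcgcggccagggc
Col8a1, chr16:57754738-57754857, minus strand.
Col8a1: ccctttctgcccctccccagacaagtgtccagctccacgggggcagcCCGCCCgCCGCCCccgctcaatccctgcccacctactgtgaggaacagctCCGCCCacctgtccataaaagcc

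The stretch between Col4a3 and Col4a4 held none of these motifs. Of the 44 members 35 matched a RefSeq entry, with 38 windows of 250 bases before to 50 after a start. A GC box was in 60.5% of these windows and in 35.7% of the 32851 windows of all genes. The CCAAT box was in 34.2% against 37.4%, and the TATA box in 13.2% against 13.6%. A match is a description of the letters and not a shown binding site.

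The most abundant fibrillar genes had the widest ranges over the libraries. In CPM, with control values in the order T4, T8 and T70 and cKO values in the order T3, T6 and T80, Col1a1 was at 85.6, 35.5 and 58.7 in control rostral libraries and 110.0, 82.7 and 99.9 in control caudal ones. In cKO it was at 76.9, 4.01 and 123 rostral and 15.5, 108 and 162 caudal. The highest and the lowest values both lay in cKO, and the cKO range enclosed that of control in both regions. Col1a2, the partner chain of type I collagen, was at 116, 51.2 and 96.2 in the control rostral libraries, 156, 121 and 151 in the control caudal ones, 134, 6.79 and 177 in cKO rostral and 31.3, 162 and 218 in cKO caudal. Col3a1, which encodes the type III collagen of soft tissues and vessel walls, was at 65.7, 29.7 and 63.8, then 97.8, 80.8 and 103.7, then 116, 6.53 and 150.01, and then 30.5, 157 and 201 in the same order of groups. The lowest library was cKO rostral T6 for each of these genes. Per kilobase, Col1a1 was 0.939 to 1.40 times Col1a2.

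Type V chains, which join type I fibrils and limit their width, spanned smaller ranges than the type I and III genes. The highest library was 8.16 times the lowest for Col5a1, 3.32 times for Col5a3 and 2.82 times for Col5a2. The lowest library of Col5a1 was cKO rostral T6, at 5.37 CPM. Col5a2 was at 26.8, 20.7 and 29.8 CPM in control rostral libraries and 29.4, 26.3 and 28.2 CPM in control caudal ones. In cKO it was at 37.1, 22.2 and 45.5 CPM rostral and 16.6, 41.3 and 46.9 CPM caudal, and only cKO caudal T3 lay below all control libraries. Col11a1, a minor fibrillar chain of cartilage and other tissues, stayed between 11.9 CPM (control rostral T8) and 22.0 CPM (cKO caudal T6). The remaining fibrillar genes Col11a2, Col27a1 and Col24a1 had means of 3.74, 2.63 and 0.72 CPM.

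Among the type IV genes Col4a1 was at 300.2, 241 and 265 CPM in control rostral libraries and 298, 238 and 259.6 CPM in control caudal ones, so the control regions overlapped fully. In cKO it was at 352, 194 and 363 CPM rostral and 158, 396 and 391 CPM caudal. The other 4 cKO libraries lay above all 6 control libraries, and cKO rostral T6 and cKO caudal T3 lay below them. Col4a2 ran from 94.6 CPM (cKO caudal T3) to 272 CPM (cKO caudal T6). Col4a5, whose chain forms networks with those of Col4a3 and Col4a4 or of Col4a6, was at 27.8, 17.1 and 29.5 CPM in control rostral libraries and 34.8, 29.9 and 33.6 CPM in control caudal ones. In cKO it was at 51.3, 5.30 and 34.1 CPM rostral and 18.4, 44.03 and 49.2 CPM caudal. Col4a6 ran from 1.68 CPM (cKO rostral T6) to 20.7 CPM (cKO caudal T80), while the scarce Col4a4 and Col4a3 had means of 4.01 and 1.05 CPM and had their lowest values in other libraries, cKO rostral T80 for Col4a3 and control caudal T4 for Col4a4.

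Among the other collagens, the beaded filament chain Col6a1 was at 21.3, 9.50 and 20.1 CPM in control rostral libraries and 33.4, 28.3 and 32.9 CPM in control caudal ones. In cKO it was at 40.7, 7.26 and 45.6 CPM rostral and 12.3, 44.5 and 46.7 CPM caudal, with the same low libraries as the fibrillar genes. Its partner Col6a2 ran from 11.7 CPM (control rostral T8) to 44.6 CPM (cKO rostral T80), and per kilobase Col6a1 was 1.16 to 2.56 times Col6a2. The multiplexins of basement membrane zones, Col18a1 and Col15a1, ran from 13.0 to 46.4 CPM and from 4.07 to 16.9 CPM.

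The transmembrane collagens differed in their spread. Col23a1 was at 19.8, 16.6 and 20.6 CPM in the control rostral libraries, 19.4, 17.8 and 18.9 CPM in the control caudal ones, 26.8, 18.8 and 27.7 CPM in cKO rostral and 17.3, 22.6 and 22.6 CPM in cKO caudal, a narrow range. Col25a1, a neuronal collagen that motor axons need to enter muscle, ran from 7.17 CPM (control rostral T8) to 30.4 CPM (cKO caudal T6). Col13a1 ran from 0.356 CPM (cKO rostral T6) to 5.68 CPM (cKO caudal T80), as did Col7a1, the anchoring fibril chain of skin, from 0.959 CPM to 7.75 CPM in the same libraries.

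**Figure D2:**
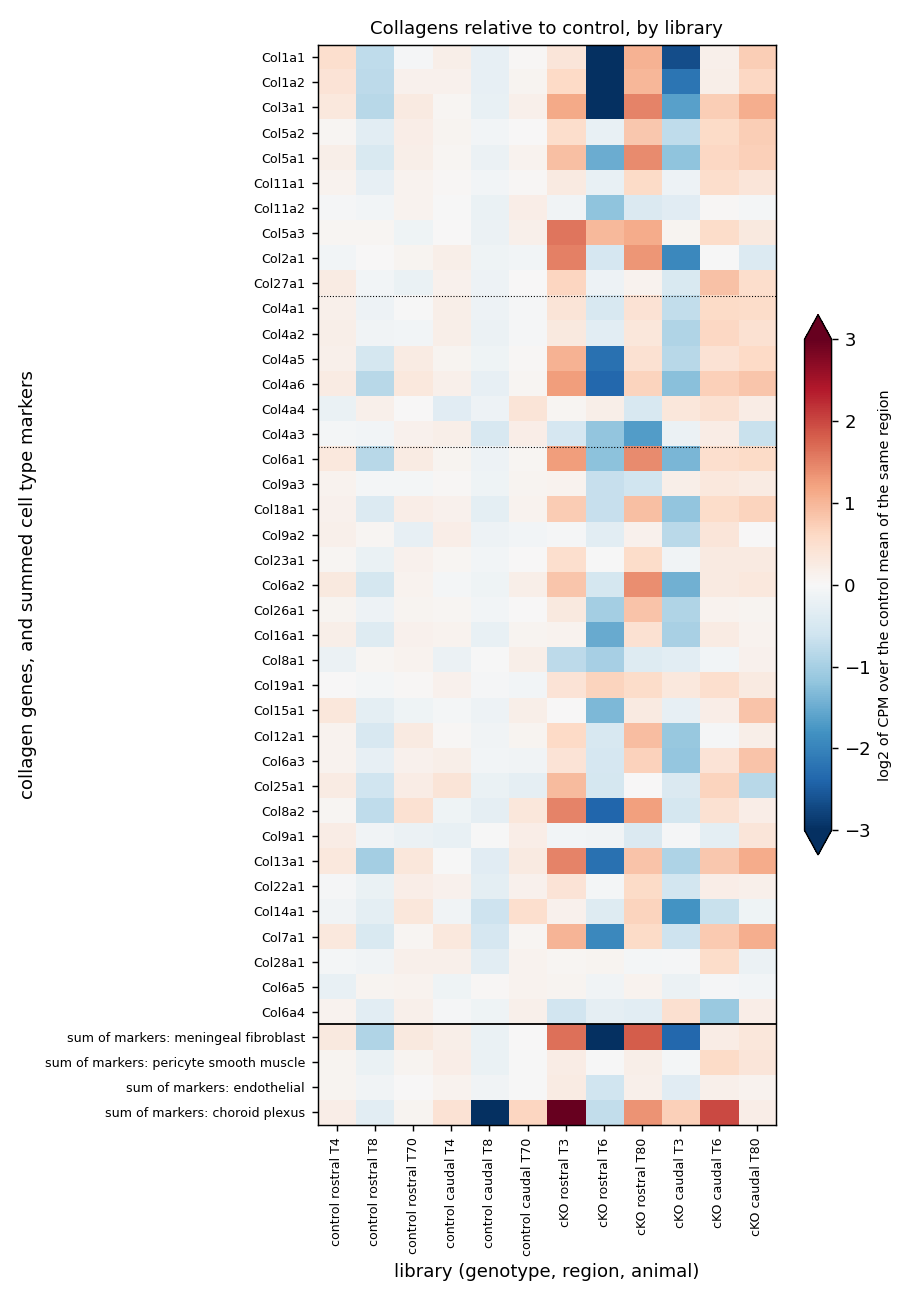
Log2 of the CPM of each collagen gene with a mean of at least 1 CPM over the control mean of the same region, by library, with the summed markers of 4 cell types under the solid line; values beyond 3 in either direction are drawn at 3. The columns of cKO rostral T6 and cKO caudal T3 are low over most of the family and over the meningeal fibroblast markers (33.1 and 136 CPM).

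Within the control animals, the rostral and caudal pieces differed in a few named collagens. Of the 44 members 7 passed the test (15.9%; edgeR quasi-likelihood test, Benjamini-Hochberg adjusted p under 0.05), where 12.2% of all 20461 genes tested did. Caudal was higher for 5 (6.3% of all genes were called higher) and lower for 2 (5.88% of all genes were called lower). The called members comprised 3 of the 11 fibrillar, 0 of the 6 type IV and 4 of the 27 other collagens. The median log2 difference, caudal over rostral, was 0.70 for fibrillar, -0.03 for type IV and 0.11 for other collagens, beside 0.00427 for all genes.

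Col2a1, the chain of cartilage collagen, had the largest difference. It was at 0.661, 0.704 and 0.737 CPM in control rostral libraries and 5.07, 4.09 and 4.26 CPM in control caudal ones, with no overlap. The log2 difference was 2.67 ± 0.15 (SE, n = 3 per region; edgeR adjusted p = 6.88e-06). Of the 10 cartilage and bone markers 8 were tested, 7 of them were above 0 in caudal over rostral, with a median log2 difference of 0.57, and 1 was called. That gene, the cartilage gene Cnmd, rose from 0.294, 0.245 and 0.513 CPM to 0.916, 1.16 and 1.19 CPM (log2 1.62 ± 0.28 SE, edgeR adjusted p = 0.00403). Within the list Acan and Matn4 were at 4.16 to 6.02 CPM and 7.23 to 12.4 CPM over the control libraries, while Matn1 and Comp were at or under 0.238 and 0.2495 CPM. Choroid plexus markers summed to 190, 13.4 and 219 CPM in control caudal T4, T8 and T70, and to 7.13, 5.05 and 6.60 CPM in control rostral. Of the caudal sums Ttr was 163, 1.64 and 195 CPM. The part of either list in the Col2a1 difference was not tested.

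Col8a2, a short-chain network collagen known from the cornea, was at 2.06, 1.16 and 2.74 CPM rostral and 4.44, 3.998 and 6.10 CPM caudal in control, without overlap (log2 difference 1.29 ± 0.30 SE, edgeR adjusted p = 0.0345). Its partner gene Col8a1, found in vessel walls, went the other way, at 18.5, 21.4 and 22.3 CPM rostral and 10.1, 11.4 and 12.9 CPM caudal. That fall of 0.85 ± 0.10 (SE) on the log2 scale had an edgeR adjusted p of 0.000474. The type V chain Col5a1 rose from 17.2, 11.03 and 17.3 CPM to 27.9, 23.6 and 28.4 CPM (log2 0.82 ± 0.18 SE, edgeR adjusted p = 0.0349). Its relative Col5a3, a less common type V chain, rose from 1.21, 1.21 and 1.06 CPM to 2.03, 1.79 and 2.23 CPM (log2 0.80 ± 0.16 SE, edgeR adjusted p = 0.00862). The regions did not overlap for either gene.

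Col26a1, an unclassed collagen known from testis and ovary, rose from 22.4, 19.1 and 22.3 CPM to 31.4, 28.4 and 30.3 CPM (log2 0.50 ± 0.07 SE, edgeR adjusted p = 0.00168). Col6a4, a rare type VI chain, fell by 0.69 ± 0.18 (SE) on the log2 scale, from 1.91, 1.44 and 1.99 CPM to 1.08, 1.01 and 1.22 CPM, with an edgeR adjusted p of 0.0316. None of the 7 called genes overlapped between the regions. On build GRCm39, as the table gives it, the called genes span these whole-gene positions. Col2a1 (ENSMUSG00000022483.18) lies on chromosome 15 from 97873483 to 97902576 on the minus strand. Col8a2 (ENSMUSG00000056174.9) lies on chromosome 4 from 126180586 to 126208123 on the plus strand, and Col8a1 (ENSMUSG00000068196.6) on chromosome 16 from 57444621 to 57575100 on the minus strand. Col5a1 (ENSMUSG00000026837.17) lies on chromosome 2 from 27776437 to 27929526 on the plus strand. Col5a3 (ENSMUSG00000004098.8) and Col6a4 (ENSMUSG00000032572.10) are both on the minus strand of chromosome 9, from 20681346 to 20726363 and from 105866653 to 105973982. Col26a1 (ENSMUSG00000004415.16) lies on chromosome 5 from 136770613 to 136912063 on the minus strand. In all, 16 of the 44 members (36.4%) did not overlap, beside 31.4% of all genes. The 9 that did not pass the adjusted test included Col1a2 and Col3a1, whose control rostral values ended at 116 and 65.7 CPM and whose caudal values began at 121 and 80.8 CPM.

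**Figure D3:**
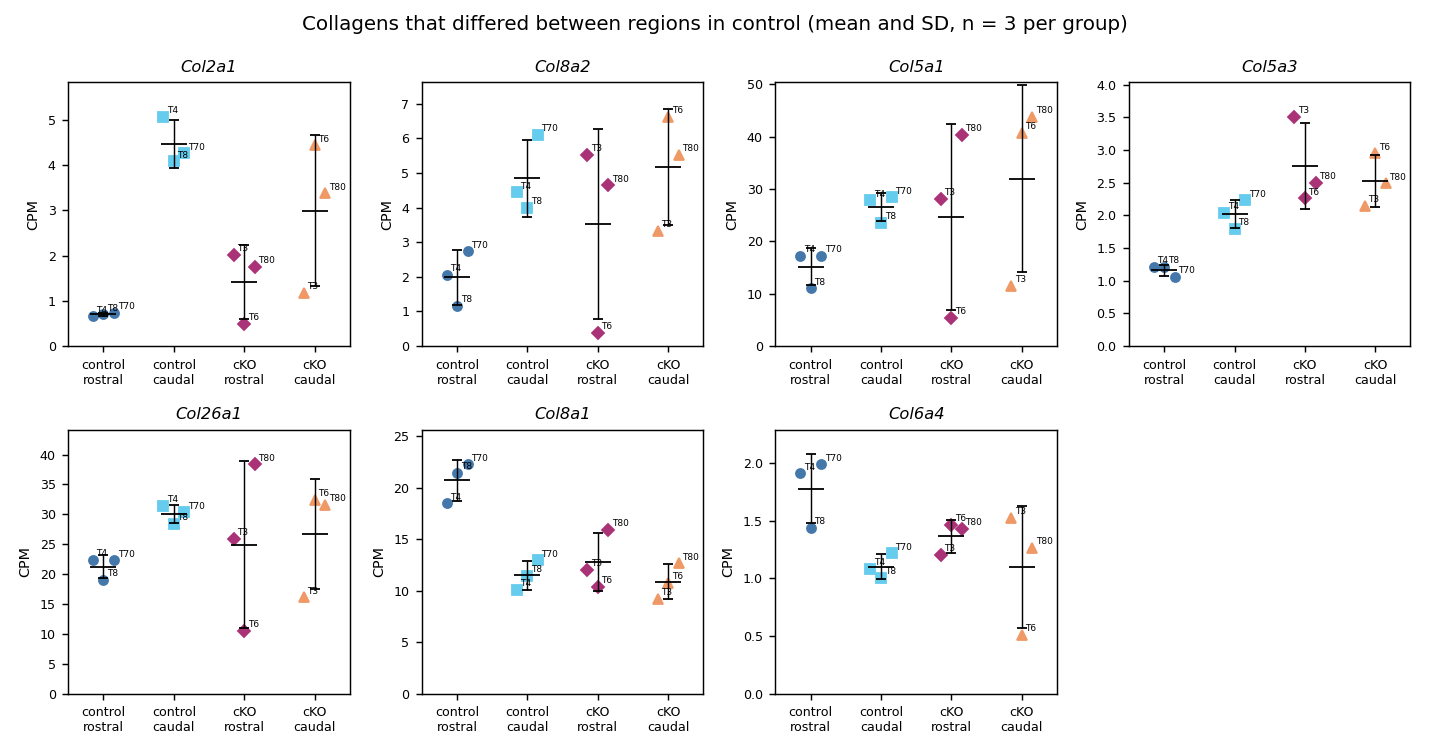
CPM of the 7 collagens that differed between regions in control, by group, with each library as a point named by animal and the mean and SD (n = 3) as bars. Control rostral and control caudal are separated in every panel (Col2a1 0.661 to 0.737 against 4.09 to 5.07 CPM), while the cKO regions overlap in every panel.

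The control libraries are pieces of the same animals, and a fit with the animal as a block called 18 members, 13 higher and 5 lower in caudal, beside 15.4% of all genes. The 11 it added were Col4a5, Col6a2, Col12a1, Col13a1, Col14a1, Col16a1, Col18a1 and Col25a1, all higher in caudal, and Col4a3, Col4a4 and Col9a3, all lower. The added differences ran from 0.99 for Col6a2 to -0.67 for Col4a3 on the log2 scale (edgeR with the block, adjusted p = 0.0075 and 0.0355). In all 3 control animals 22 members were higher in caudal and 10 were lower, counts given without the share of all genes. A fit over all 12 libraries, which share 1 estimate of the spread, called 0 of the 44 (0.361% of all genes), with 5 at an unadjusted p under 0.05. Without T4 the 3 called were Col2a1, Col26a1 and Col8a1 (8.21% of all genes). Without T8, whose rostral piece was low in fibrillar collagens, 12 were called (5.25% of all genes), with Col1a2 at 0.53, Col3a1 at 0.64 and Col6a1 at 0.68 on the log2 scale among those added. With no low-count filter 13 were called (9.05% of all genes), and DESeq2 called 12 (13.0% of all genes). Markers of meningeal fibroblasts moved in the same direction, with all 15 above 0 in caudal over rostral, 4 of them called and a median log2 difference of 1.13. Choroid plexus markers also did, with all 10 above 0, 6 called and a median of 1.91. Their part in the collagen differences was not tested.

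In cKO no collagen passed the test between regions. Of the 44 members 0 passed the edgeR test (0.0% of all genes), 0 had an unadjusted p under 0.05 and DESeq2 called 0. A fit without the cKO rostral T6 and cKO caudal T3 libraries, added after the data were seen, also called 0, with 3 members at an unadjusted p under 0.05, and the fit with the animal as a block called 0. Without T3, whose meningeal and choroid plexus orders were both the reverse of those in control, 0 were called. That fit had 3 members at an unadjusted p under 0.05, and the median log2 difference over members moved from 0.12 to 0.46. Only Col6a5 did not overlap between the cKO regions (5.67% of all genes did not), at 2.42, 2.11 and 2.44 CPM rostral and 1.92, 2.10 and 2.04 CPM caudal. The animals went different ways. The number of the 44 members higher in caudal was 2 for T3, 38 for T6 and 26 for T80, beside 28, 27 and 28 in control T4, T8 and T70. The median log2 difference over members stood at -0.72 for T3, 0.89 for T6 and 0.05 for T80, beside 0.15, 0.19 and 0.16 in the control animals.

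The interaction of genotype and region, which tests whether the regional difference itself differed between genotypes, called 0 of the 44 members with edgeR (0.0% of all genes) and 0 with DESeq2, and 4 members had an unadjusted p under 0.05 in each. The edgeR estimates of these were -1.58 ± 0.69 (SE) for Col2a1, -0.92 ± 0.28 for Col5a3, 0.59 ± 0.25 for Col9a3 and 0.62 ± 0.24 for Col8a1 on the log2 scale, each with an edgeR adjusted p of 0.99967. Without animal T6, Col2a1 (-2.37, edgeR adjusted p = 0.0356) and Col5a3 (-1.17, edgeR adjusted p = 0.0484) passed, beside 2.17% of all genes. Without T3 no member passed, with 6 at an unadjusted p under 0.05. Without the libraries that stood apart Col2a1 passed alone (-1.60, edgeR adjusted p = 0.042), beside 0.178% of all genes. None of these fits had the animal as a block, so the pieces of an animal entered as separate libraries. The interaction fit with that block, over all animals, called 0 members, beside 0.0% of all genes.

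In the comparison of genotype in rostral tissue, 0 of the 44 members passed the edgeR test, as did 0.0% of the 20599 genes tested. The median log2 fold change, cKO over control, was 0.27 for the 44 members, 0.45 for fibrillar, 0.16 for type IV and 0.24 for other collagens, beside 0.038 for all genes. At an unadjusted p under 0.05 there were 4 members, a count given without the share of all genes. DESeq2 called 3, beside 1.71% of all genes. A fit over all 12 libraries called 1, Col5a3, beside 0.468% of all genes. Col5a3 was at 1.21, 1.21 and 1.06 CPM in control and 3.51, 2.26 and 2.50 CPM in cKO, which did not overlap (log2 1.26 ± 0.24 SE, edgeR adjusted p = 0.310, DESeq2 adjusted p = 0.000691). Col19a1, a FACIT collagen made by interneurons and needed for some of their synapses, was at 9.22, 8.90 and 9.47 CPM in control and 12.3, 14.6 and 13.6 CPM in cKO (log2 0.56 ± 0.12 SE, edgeR adjusted p = 0.312, DESeq2 adjusted p = 0.0099). Col8a1 was at 18.5, 21.4 and 22.3 CPM in control and 12.03, 10.4 and 15.9 CPM in cKO, a log2 difference of -0.69 ± 0.18 (SE; edgeR adjusted p = 0.371, DESeq2 adjusted p = 0.0325). Col4a3, at 1.51, 1.47 and 1.71 CPM in control and 1.11, 0.685 and 0.491 CPM in cKO, was the other member at an unadjusted p under 0.05 (log2 -1.02 ± 0.33 SE, edgeR adjusted p = 0.440).

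In rostral tissue 5 of the 44 members did not overlap between genotypes (11.4%), beside 19.8% of all genes. These were Col5a3 and Col19a1, higher in cKO, and Col11a2, Col4a3 and Col8a1, lower. Without animal T6, 5 members passed the edgeR test, all higher in cKO, beside 5.01% of all genes. On the log2 scale they were Col2a1 at 1.43 ± 0.21 (SE), Col5a3 at 1.39 ± 0.21, the transmembrane collagen Col23a1 at 0.53 ± 0.10, Col19a1 at 0.50 ± 0.09 and the type IV gene Col4a1 at 0.42 ± 0.09. Their edgeR adjusted p-values ran from 0.0127 for Col2a1 to 0.0421 for Col4a1. The marker lists were read in the rostral fit with T6 included. There the 15 meningeal fibroblast markers were all above 0 in cKO over control, with a median log2 difference of 1.05. The 9 choroid plexus markers tested were also all above 0, with a median of 1.56. All 9 oligodendrocyte lineage markers were below 0, with a median of -1.10 and 8 at an unadjusted p under 0.05, and 8 of 9 astrocyte markers were below 0, with a median of -1.02. In these 4 lists edgeR called 0, and the cKO animals differed. In the order T3, T6 and T80, the rostral meningeal sums were 315%, 11.9% and 352% of the control mean. The choroid plexus sums were 6422%, 59.8% and 256% of it. Most of the T3 sum was Ttr, at 360 CPM against 0.202, 0.336 and 0.048 CPM in control rostral T4, T8 and T70. The oligodendrocyte lineage sums were 74.8%, 49.7% and 59.1%, and the astrocyte sums 104%, 41.3% and 79.0%. The part of these lists in the collagen values was not tested.

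In caudal tissue 0 members passed the edgeR test, beside 0.0821% of all 20705 genes, 2 had an unadjusted p under 0.05 and DESeq2 called 0. The median log2 fold change was 0.16 for the 44 members, beside 0.00446 for all genes. Col19a1 was at 10.7, 9.64 and 9.26 CPM in control and 12.4, 14.02 and 11.9 CPM in cKO (log2 0.37 ± 0.11 SE, edgeR adjusted p = 0.224), without overlap. Col9a3, a chain of type IX collagen, was at 22.1, 19.6 and 23.0 CPM in control and 24.4, 26.9 and 25.5 CPM in cKO, also without overlap (log2 0.25 ± 0.09 SE, edgeR adjusted p = 0.275). Only these 2 members (4.55%) did not overlap, beside 22.6% of all genes.

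Leaving out animal T3 let 3 fibrillar genes pass in caudal tissue, beside 0.469% of all genes. Col3a1 rose by 0.93 ± 0.13 (SE; edgeR adjusted p = 0.0374), Col5a1 by 0.67 ± 0.10 (edgeR adjusted p = 0.0349) and Col5a2 by 0.66 ± 0.09 (edgeR adjusted p = 0.0235) on the log2 scale. With T80 left out instead, Col3a1 and Col5a1 were at -0.00124 and -0.0188. The meningeal fibroblast markers of cKO caudal T3 summed to 136 CPM against 608 to 778 CPM in control caudal, and their part in these values was not tested.

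**Figure D4:**
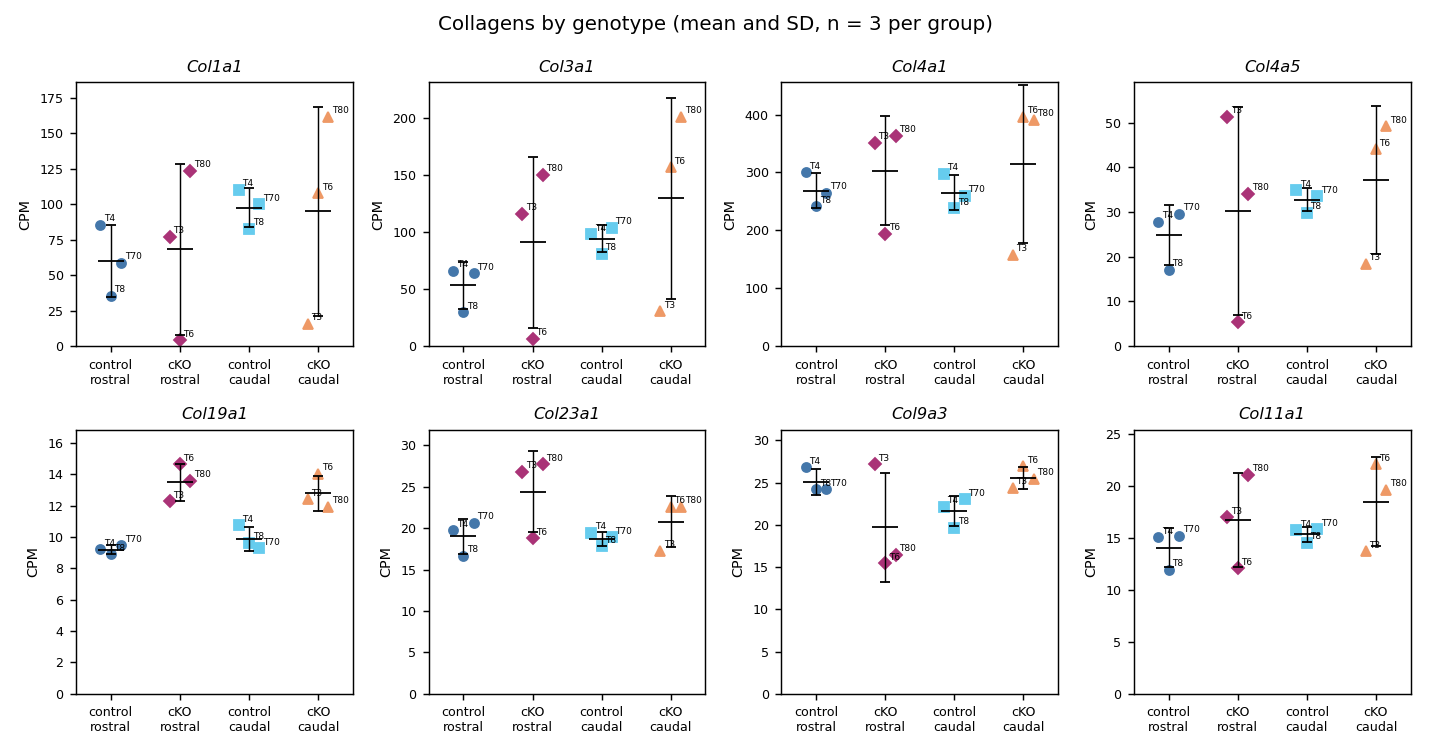
CPM of 8 collagens in control and cKO libraries of each region, with each library as a point named by animal and the mean and SD (n = 3) as bars. Col19a1 separates control (8.90 to 10.7 CPM) from cKO (11.9 to 14.6 CPM) over all 12 libraries, while the cKO spread of Col1a1, Col3a1, Col4a1 and Col4a5 covers the control values.

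When the rostral and caudal counts of each animal were summed, 0 members passed the edgeR test, beside 0.179% of all genes, 6 had an unadjusted p under 0.05 and DESeq2 called 2, beside 3.26% of all genes. The smallest edgeR adjusted p-values were 0.112 for Col5a3 (log2 0.72 ± 0.14 SE) and 0.128 for Col19a1 (log2 0.44 ± 0.09 SE), and these were the members called by DESeq2 and by edgeR without animal T6 (2.92% of all genes). Over single libraries, Col19a1 was the only member whose 6 cKO libraries all lay on the same side of the 6 control libraries, beside 3.59% of all genes. It lies on chromosome 1 at 24300971 to 24626553 (GRCm39, minus strand), next to Col9a1 at 24216691 to 24291765 (plus strand). Col9a1, a type IX chain, stayed between 2.51 and 4.52 CPM with overlapping genotypes.

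The cKO rostral T6 library was the lowest of the 12 for 16 members and cKO caudal T3 for 12, beside 7 for control rostral T8. These counts are given without the share of all genes, so they cannot be set apart from a general shift of a library. In cKO rostral T6, 24 of the 44 members were below all 5 other rostral libraries and 4 were above them, and 17 were under 50% of their mean. Among genes of at least 1 CPM, 59.0% of the members and 36.8% of all 16030 genes were below all 5 (35.2% of all genes were above), while 17 members and 7.35% of all genes were under 50%. In cKO caudal T3, 32 of the 44 members were below all 5 other caudal libraries and 21 were under 50% of their mean. Among genes of at least 1 CPM, 76.9% of the members and 21.8% of all genes were below all 5, while 19 members and 2.09% of all genes were under 50%. These shares are descriptions of single libraries and carry no test.

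Within each class the members differed widely. In cKO rostral T6 Col1a1 was at 5.28% of the mean of the other 5 rostral libraries, Col1a2 at 5.91% and Col3a1 at 7.69%. Col8a2 (11.9%), Col13a1 (13.9%, a transmembrane collagen of cell junctions), Col4a6 (13.9%) and Col4a5 (16.6%) followed. Col4a1 and Col4a2 were at 63.8% and 73.6%, while Col19a1 was at 137%, Col5a3 at 119% and Col4a4 at 118%. In cKO caudal T3 Col1a1 was at 13.8%, Col1a2 at 19.3%, Col3a1 at 23.8% and Col2a1 at 27.6%. There Col4a1 was at 49.8% and Col4a2 at 45.0%, while Col6a4 was at 150.1%, Col4a4 at 114% and Col19a1 at 112%. In both libraries at once 13 members were under 50%, among them Col1a1, Col1a2, Col3a1, Col5a1, Col4a5, Col4a6, Col6a1, Col6a2 and Col18a1. Across the 44 members the percentages in these libraries had a Spearman rho of 0.62, given as a description over genes that share each library.

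**Figure D5:**
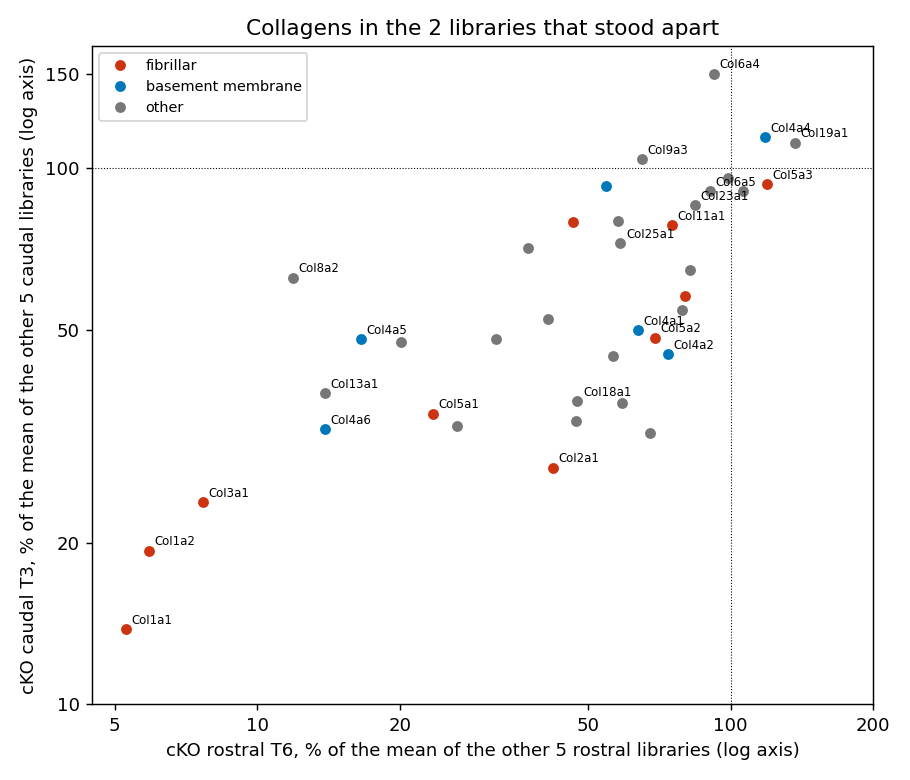
CPM of each collagen with a mean of at least 1 CPM in cKO rostral T6 (x axis) and cKO caudal T3 (y axis), each as a percent of the mean over the remaining 5 libraries from its region (both log axes), coloured by class. Col1a1, Col1a2 and Col3a1 lie lowest on both axes, and Col19a1, Col5a3 and Col4a4 lie near or above 100% on both.

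Cell type markers moved with these libraries to different extents. Meningeal fibroblast markers were lower than the control mean of the region for 15 of 15 genes in both libraries, with Slc47a1 at 0 in cKO caudal T3 and Slc6a13 at 0.0411 CPM in cKO rostral T6. Endothelial markers (12 genes) summed to 241 CPM in cKO rostral T6 and 279.7 CPM in cKO caudal T3, against 329 to 436 CPM in the other libraries. Pericyte and smooth muscle markers (12 genes) summed to 304 and 252 CPM, within the 225 to 388 CPM of the other libraries. Rgs5 alone made up 198 and 160 CPM of these sums, which hid falls in other genes of the list. Of the 12 genes 8 and 7 were below the control mean of the region, with mean log2 differences of -0.26 and -0.31. In cKO rostral T6 astrocyte markers (9 genes) were also low, at 907 CPM against 1735 CPM or more elsewhere. Microglial markers (7 genes) summed to 85.1 CPM there, against 112 CPM or more elsewhere, and oligodendrocyte lineage markers (9 genes) to 289 CPM, against 344 CPM or more. Erythroid markers (7 genes) were lowest in cKO caudal T3, at 149.7 CPM against 219.8 CPM or more. The part of these cell types in the collagen values was not tested.

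Genes that make, process, bind and degrade collagens were taken from 6 lists with 72 genes. In the comparison of regions in control, 12 of the 70 tested were called higher in caudal and 3 lower by edgeR, beside 6.3% and 5.88% of all genes. The hydroxylation and folding list, whose products modify the chains in the endoplasmic reticulum, had 3 of 19 higher and 2 lower, with the collagen chaperone Serpinh1 at 0.29 and the isomerase Ppib at 0.24, and the lysyl hydroxylase Plod2 at -0.41 on the log2 scale. Of the 13 processing and cross-linking genes 2 were higher and 1 lower, with the procollagen propeptidase Adamts2 at 0.99, the related enzyme Adamts3 at -0.32 and the tolloid protease Tll1 at 0.41. The single called fibril-binding proteoglycan of 8 was Prelp, at 1.48.

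Among the receptors 2 of 10 were higher in caudal, the discoidin receptor Ddr1 at 0.29 and the integrin chain Itga11 at 0.87. Of the 7 tested degradation genes 3 were higher, the collagen-degrading protease Ctsk at 1.38 and the protease inhibitors Timp1 and Timp2 at 1.06 and 0.32. Of the 13 basement membrane partners only the laminin chain Lamb2 was called, at 0.40. In the comparisons of genotype edgeR called 0 of the listed genes in rostral, caudal and summed tissue, with 5, 6 and 13 at an unadjusted p under 0.05, and DESeq2 called 2, 2 and 3 of the 72, beside 1.71%, 2.43% and 3.26% of all genes. In the region comparison in cKO and in the interaction both tools called 0, with 0 and 4 at an unadjusted p under 0.05 in edgeR.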

How the data were processed

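The authors deposited expected counts per gene, of which 9.69% to 14.3% were fractional in a library. The submitters' processing notes name STAR 2.7.8a, featureCounts 2.0.3 and build GRCm39. The strand setting and the treatment of shared reads are stated in no source used here. Counts were rounded, and each comparison was fitted over all genes on its own libraries with edgeR 4.0.16 (R 4.3.3, filterByExpr, TMM scaling, robust quasi-likelihood test, Benjamini-Hochberg adjustment, threshold 0.05). Levels are CPM, counts scaled to the library size, with TMM scaling over all 12 libraries. Alternatives were DESeq2 1.42.0, RLE scaling, other filters on low counts, each animal left out, the animal as a block and 1 fit over all libraries. The fits were also run on simulated counts with the same spread for every gene and no library that stood apart. There 97% of log2 changes of 1 were recovered for genotype in rostral tissue and 73% for the interaction. These rates do not carry over to the cKO groups, whose libraries differed widely. The collagen genes, their classes and the lists were chosen with earlier results of these data known. Values per library are given for members past the test in any comparison and for those of at least 1 CPM that lead their class in level, the rest by range and count. Up to 3 genes by smallest p are named per pathway list. Counts of members or listed genes at an unadjusted p under 0.05 are descriptions, given without the share of all genes.

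Rostral and caudal libraries pair by the T number in their titles. Deviations from the group means correlated within animals across 21599 genes with r of 0.291 (T4), 0.275 (T8), 0.348 (T70), 0.0185 (T3), -0.000852 (T6) and 0.483 (T80).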

Additional observations from a re-analysis of the deposited data

How the results depend on the processing

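For regions in control, the 7 collagens called became 13 with no low-count filter, 12 with DESeq2, 18 with the animal as a replicate block, 0 in a fit over all 12 libraries, and 3 to 12 with each animal left out (3 without T4, 12 without T8). For genotype in rostral tissue, 0 became 3 with DESeq2, 1 in a fit over all 12 libraries, and 0 to 5 with each animal left out (5 without T6). In caudal tissue the range with each animal left out was 0 to 3 (3 without T3), and for summed counts it was 0 to 2 (2 without T6), with 2 by DESeq2. For the interaction the range was 0 to 2 (2 without T6), and 1 was called without cKO rostral T6 and cKO caudal T3, a choice made after seeing the data. With the animal as a replicate block, 0 were called for the interaction. For regions in cKO, 0 were called under every alternative run, the replicate block included.

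Of 344 alternative values of 33 fold changes of named collagens, 306 kept their direction and side of the threshold, 19 passed it newly, 15 lost it and 4 reversed. The reversed values were Col3a1 at -0.00124 and Col5a1 at -0.0188 for genotype in caudal tissue without T80, and Col8a2 at -0.19 and Col6a4 at 0.0857 for region in cKO without T6. With each animal left out these ran up to 0.93 for Col3a1, 0.67 for Col5a1 and 1.29 for Col8a2, and down to -0.70 for Col6a4. The cause of these changes was not tested. At these depths the members under 1 CPM rested on as few as 2 counts in a library.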
